A study of Homo sapiens with 6 samples.

Results

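The 34 genes described here include targets of the transcription factor ATF4 that make or import amino acids or charge tRNAs with them. With them stand ATF4 itself and other stress factors and regulators (ATF5, DDIT3, CEBPB, CEBPG, NUPR1, TRIB3 and CHAC1). PCK2, the tRNA exporter XPOT, STC2 and VLDLR also lie outside those tasks. All 34 genes were taken from a list of symbols and found by gene ID among the 60252 IDs of the count table. No measured value entered the rule, but the list was chosen with earlier results of these data known. All 34 were found. A filter on low counts kept 30 of them among 13510 features, and TRIB3, CHAC1, CTH and CBS did not pass it.

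Gene expression was measured by RNA sequencing in RPE-1, an immortalised line from human retinal pigment epithelium kept in culture by added telomerase. The work was repeated in 3 independent experiments, taken to be the letters A, B and C. Arrested cells had been held at the start of S phase by 2 mM thymidine for 24 h and were not released. Cells named 4h_DMSO or 4h_ATRi were washed 3 times, given either DMSO as solvent or AZ20 (2 µM), which inhibits ATR, from 1 h after the wash, and were collected at 4 h of release (late S phase) after 3 h of treatment. Cells named 6h_DMSO or 6h_ATRi were handled in the same way and collected at 6 h (G2) after 5 h of treatment. Cycling cells were asynchronous. Arrested and cycling cells are labelled as not treated, so the released cells differ from them in the wash, the fresh medium, the solvent and the cell cycle position together, and these cannot be told apart. Nor can thymidine, which arrested and released cells had been given and which is not labelled for cycling cells. Arrested cells were collected without release from it. The inhibitor comparisons address which genes the kinase ATR controls through transcription, per the series' design text.

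ATF4 is the effector of the integrated stress response. Kinases that sense amino acid shortage (GCN2, encoded by EIF2AK4), endoplasmic reticulum stress or other insults phosphorylate the translation factor eIF2, which lowers protein synthesis in general and raises translation of the ATF4 messenger. ATF4 then binds, often with a C/EBP partner, to composite elements near genes for amino acid synthesis, transport and tRNA charging. Because ATF4 activity is set largely by translation, its own transcript level is an incomplete guide to it.

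The element that ATF4 and C/EBP factors share has the core TGATGNAA, where N is any base. It was searched on both strands in windows from 250 bases before to 50 bases after the annotated start of each gene, taken from RefSeq on GRCh38.p14. Windows were found for 28 members, and 8 of the 28 (28.57%) held the core, against 1217 of 27305 genes (4.46%) in the whole table. The 8 are AARS1, ASNS, CEBPG, CHAC1, GARS1, SLC1A5, SLC3A2 and SLC7A1. Counted by window, 8 of 46 member windows (17.39%) held it, against 1270 of 35116 (3.62%). The members were chosen as ATF4 targets, so the share describes the list, and a match is not evidence of binding in these cells. Windows are printed for 3 of these 8 whose transcripts carry results below, with the core in capitals. Each of the 3 has further annotated starts whose windows held no core, and distances are from the start of the printed window's transcript. Of members called below, SLC7A5 had no core in its window and NUPR1 had no window. SLC3A2 lies at chr11:62881449-62881748 on the plus strand, and its core is on the opposite strand 37 bases after the start. SLC1A5 lies at chr19:46784765-46785064 on the minus strand, with its core 97 bases before the start. ASNS lies at chr7:97872359-97872658 on the minus strand, with its core 68 bases before the start.
SLC3A2: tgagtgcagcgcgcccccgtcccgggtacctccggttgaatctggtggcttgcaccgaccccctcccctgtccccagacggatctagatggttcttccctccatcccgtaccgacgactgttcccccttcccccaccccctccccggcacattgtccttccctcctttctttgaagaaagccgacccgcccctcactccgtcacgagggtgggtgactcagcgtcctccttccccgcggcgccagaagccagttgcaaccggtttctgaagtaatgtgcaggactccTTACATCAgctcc
SLC1A5: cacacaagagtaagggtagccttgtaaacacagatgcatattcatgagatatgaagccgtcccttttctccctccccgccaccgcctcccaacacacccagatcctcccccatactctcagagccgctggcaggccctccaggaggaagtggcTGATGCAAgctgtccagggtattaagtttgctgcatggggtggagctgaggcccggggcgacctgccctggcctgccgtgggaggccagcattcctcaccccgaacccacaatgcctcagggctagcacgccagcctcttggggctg
ASNS: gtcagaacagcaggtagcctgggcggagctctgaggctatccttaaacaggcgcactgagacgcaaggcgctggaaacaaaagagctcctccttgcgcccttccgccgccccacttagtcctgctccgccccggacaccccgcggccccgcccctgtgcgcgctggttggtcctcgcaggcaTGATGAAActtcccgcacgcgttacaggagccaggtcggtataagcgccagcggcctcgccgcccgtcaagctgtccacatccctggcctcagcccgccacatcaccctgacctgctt

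There were 17 libraries, 3 for each condition and 2 for 6h_ATRi, because experiment C of that condition is not analysed here. Their totals ran from 1758747 to 2357561 counts. Levels are given as CPM, counts scaled by TMM to a common library total, always in the order A, B, C. Fold changes are on the log2 scale with their SE, and a call is an adjusted p under 0.05 by edgeR's quasi-likelihood test over all 13510 features. A second fit took the experiment as a block. In bulk RNA a change in the share of cells at one stage and a change in RNA per cell cannot be told apart. Of 13 retinal pigment epithelium markers, 8 passed the filter. The visual cycle markers RPE65, RLBP1 and LRAT had mean levels of 0.0583, 0.206 and 0.489 CPM. Of the secreted markers, TTR had 0.0268 CPM and SERPINF1 19.95. The transcription factors OTX2, MITF and PAX6 had 2.13, 4.76 and 23.9 CPM, and TYRP1 had 4.18. An exon of PAX6 and one of TYRP1 are overlapped by a feature on the opposite strand, and none of SERPINF1 is. The highest were BEST1, KRT8, PMEL and KRT18, with 12830, 3839, 322.9 and 282.5 CPM, and an exon of each of these 4 is overlapped by a feature on the opposite strand. Of 23 markers of other cell types, 22 were in the table, 8 of them were at 0 in every library, and their summed level ran from 43.8 to 71.6 CPM with overlapping ranges in all 6 conditions. As a check of the labels, edgeR called 5 of 10 mitotic genes higher with the inhibitor at 4 h (0.311% of all features called). Between arrested cells and 6h_DMSO 6 of 10 were called higher (2.32%). With the inhibitor at 6 h 0 were called (0.0074%), as between the DMSO times (0.0814%) and from arrested cells to 4h_DMSO (0.74%). In each of these comparisons all 10 had a log2 fold change above 0. Against cycling cells 2 were called lower in arrested cells (1.03%), 0 in 4h_DMSO (0.918%) and 1 higher in 6h_DMSO (1.04%).

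At many of these loci most counts lie on the opposite strand. An exon of 12 members is overlapped by a feature on the opposite strand, 18 such features in all, of which 16 passed the filter. In 9 of the 12, the opposite feature held more counts than the member in 17 of 17 libraries. The light subunit SLC7A5 had 125.7 ± 53.3 CPM (SD, n = 17) and AC126696.2, opposite to it, had 864 ± 334. For the mitochondrial folate enzyme MTHFD2 the values were 12.7 ± 5.84 CPM and, for AC006030.1, 672 ± 205. The exceptions were ATF5, DDIT3 and GARS1, with 115.7, 115.4 and 23.4 CPM against 32.7, 94.7 and 12.9 on their most abundant opposite features. The library kit keeps the strand, and the strand setting of the counting is not given in the sources used here. So the values of each overlapped member and of its opposite feature are uncertain as to the gene. The opposite feature is given beside the member where either was called. The strand setting applies to all features, so the levels of members with no opposite feature are uncertain too. Its effect on them was not tested.

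**Figure D1:**
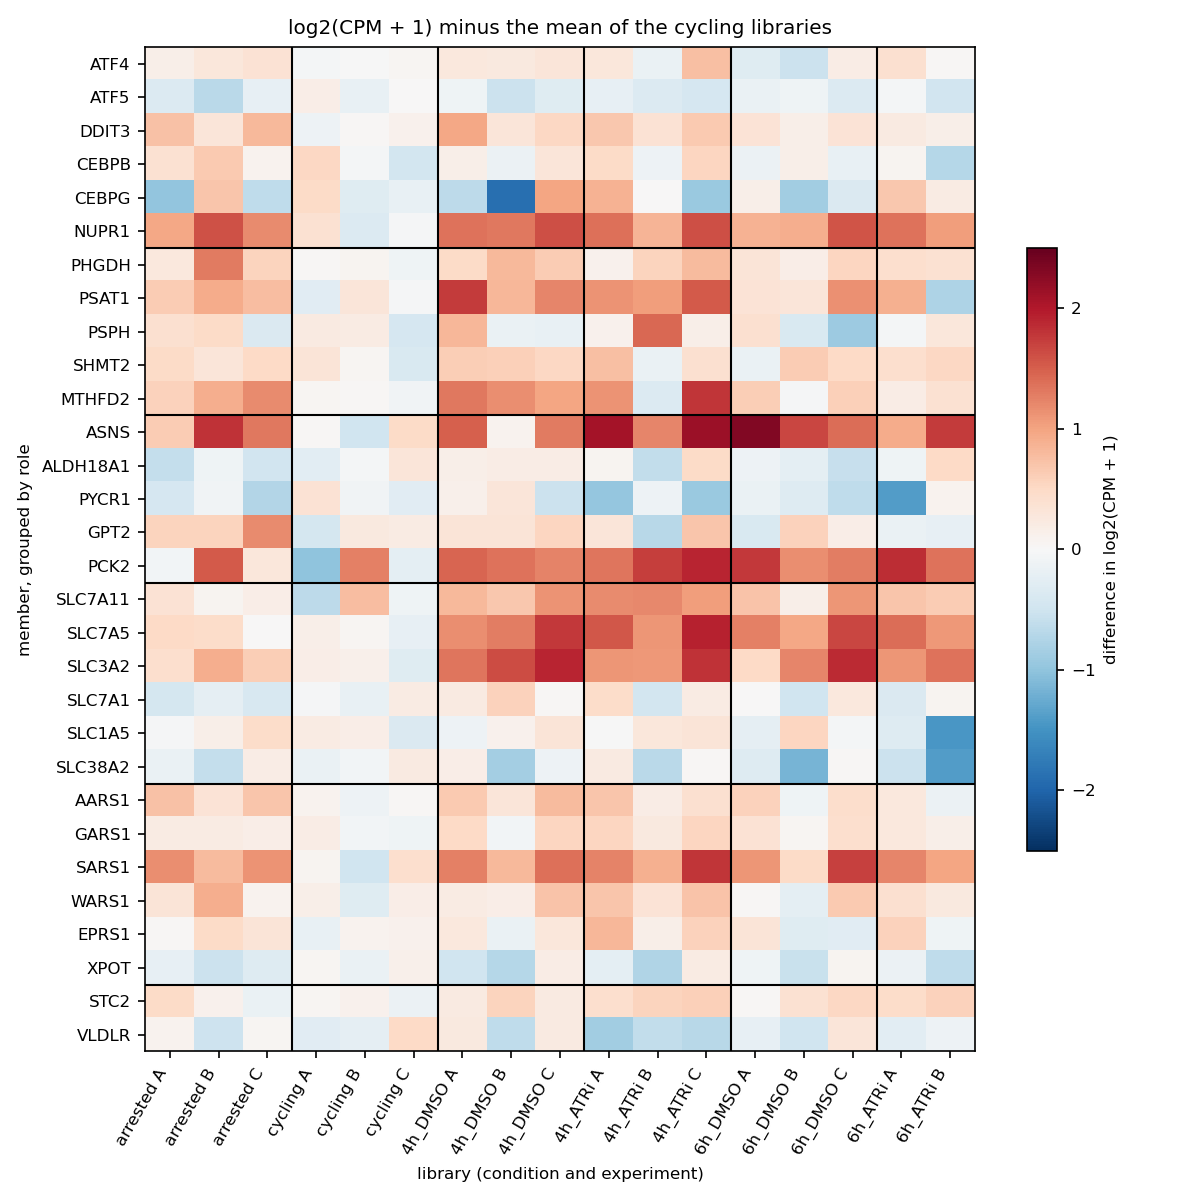
Heat map of the 30 members that passed the filter (rows, grouped by role) in the 17 libraries (columns, by condition and experiment). Colour is log2(CPM + 1) minus the mean of the 3 cycling libraries. SLC7A5, SLC3A2 and NUPR1 are red in every released library, and for no member do the 4h_ATRi libraries lie wholly outside the range of the 4h_DMSO ones.

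No member was called with the ATR inhibitor at 4 h of release, which does not show that the levels were equal. By edgeR 0 of 30 members passed in either direction, 0 had an unadjusted p under 0.05, and DESeq2 also called 0. Among all features 0.311% passed by edgeR and 0.651% by DESeq2. With the experiment as a block 0 members passed, against 1.75% of all features. The median log2 fold change of the members was 0.07, with 16 above 0 and 14 below, and that of all features was -0.01.

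VLDLR, a lipoprotein receptor, had the smallest p among the members. It had 9.98, 4.95 and 9.85 CPM in 4h_DMSO and 4.10, 5.02 and 4.75 in 4h_ATRi. The groups overlapped, since the DMSO library of experiment B was as low as those with inhibitor. The log2 fold change was -0.83 ± 0.41 (edgeR adjusted p = 0.906). PYCR1, the last enzyme of proline synthesis, had -0.71 ± 0.43 (edgeR adjusted p = 0.9998) and EPRS1, which charges the tRNAs of glutamate and proline, had 0.43 ± 0.27 (edgeR adjusted p = 0.9998). SLC7A5 had 133, 144 and 202 CPM in 4h_DMSO and 174, 128 and 226 in 4h_ATRi, with the order of the 2 treatments changing between experiments.

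AC008622.2, a feature opposite to the glutamine transporter SLC1A5, was lower with the inhibitor in all 3 experiments at 4 h. It had 637, 411 and 589 CPM in 4h_DMSO and 473, 327 and 465 in 4h_ATRi. Each experiment kept its own level, with B lowest in both groups, so the groups overlapped while the pairs moved one way. The log2 fold change was -0.37 ± 0.20, with an edgeR adjusted p of 0.977, and of 0.0142 with the experiment as a block. Of the 16 opposite features measured, 0 passed by edgeR without the block or by DESeq2, 1 had an unadjusted p under 0.05, and 2 passed with the block, AC008622.2 among them. Of all features 1.75% passed with the block. SLC1A5 itself had 14.97, 17.8 and 20.7 CPM and 16.4, 20.1 and 20.9, a log2 fold change of 0.10 ± 0.29.

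At 6 h of release 0 of 30 members passed with the inhibitor by edgeR, with the block and by DESeq2, and 1 had an unadjusted p under 0.05. Among all features 0.0074% passed by edgeR, 0.533% with the block and 0.546% by DESeq2. The member with that p was SLC1A5, to which DESeq2 gave no adjusted p. It had 13.98, 24.1 and 15.9 CPM in 6h_DMSO and 12.9 and 5.39 in 6h_ATRi, and the groups did not overlap. The fold change was -0.98 ± 0.36 (edgeR adjusted p = 0.9999), and most of it came from experiment B, where the inhibitor library held 10 counts. In A alone the log2 ratio was -0.11, and in B it was -1.97.

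ATF4 had 26.1, 22.1 and 37.3 CPM in 6h_DMSO and 43.1 and 33.4 in 6h_ATRi, higher with inhibitor in both experiments that hold a pair, though the 6h_DMSO library of C lay between them. Its log2 fold change was 0.43 ± 0.26 (edgeR adjusted p = 0.9999). ALDH18A1, the first enzyme of proline synthesis, had 0.59 ± 0.38 (edgeR adjusted p = 0.9999). The median over the members was -0.07, against 0.01 over all features. None of the 16 opposite features passed by edgeR, with the block or by DESeq2, and 1 had an unadjusted p under 0.05.

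The responses at 6 h and 4 h were compared directly. By edgeR 0 of 30 members differed, 1 had an unadjusted p under 0.05, and 0 passed with the block or by DESeq2, against 0% of all features by edgeR, 0.0444% with the block and 0% by DESeq2. SLC1A5 had the smallest p, with a difference of -1.08 ± 0.47 (edgeR adjusted p = 0.9999). ALDH18A1 differed by 0.72 ± 0.51 (edgeR adjusted p = 0.9999) and the asparagine synthetase gene ASNS by -1.63 ± 1.16 (edgeR adjusted p = 0.9999). A p that misses the threshold does not show that the responses were equal: the SE of these differences is wide, and ASNS held 0 to 13 counts in a library.

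**Figure D2:**
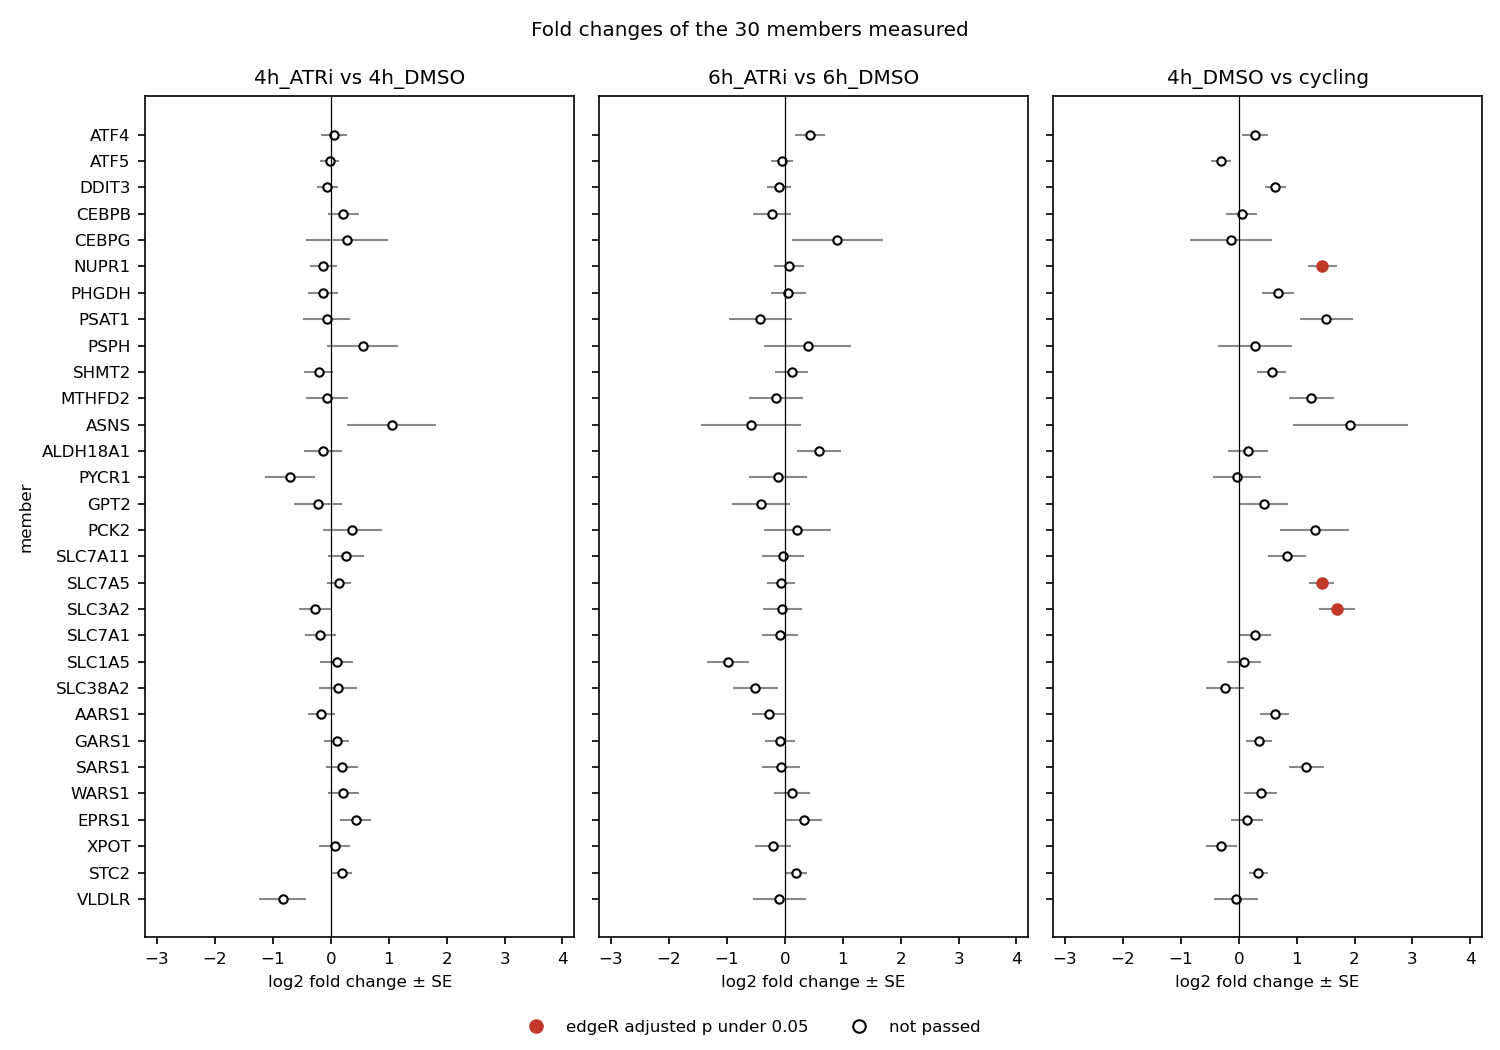
Log2 fold change ± SE (horizontal axis) of the 30 members in 3 comparisons, fitted by edgeR to all 17 libraries. Open circles did not pass and filled circles had an adjusted p under 0.05. No circle is filled for the inhibitor at 4 h or 6 h, and NUPR1, SLC7A5 and SLC3A2 are filled for 4h_DMSO against cycling cells.

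A few members differed among arrested, cycling and DMSO cells. Along the release itself, from arrested cells to 4 h and 6 h in DMSO, only SLC7A5 was called by edgeR without the block. Comparisons of arrested, cycling and DMSO cells share libraries with one another, so their values are given side by side. Against cycling cells, SLC7A5, SLC3A2 and NUPR1 rose in 4h_DMSO and again in 6h_DMSO, 3 of 30 members each time, against 0.918% and 1.04% of all features called. In arrested cells 1 member rose against cycling cells, NUPR1, against 1.03% of all features. Against arrested cells, SLC7A5 alone rose in 4h_DMSO (0.74% of all features called) and in 6h_DMSO (2.32%). No member was called lower in these 5 comparisons by edgeR.

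Among the transporters, SLC7A5 (the light chain LAT1, which carries leucine and other large neutral amino acids) and SLC3A2 (its heavy chain CD98) make 1 heterodimer. SLC7A5 had 65.6, 61.3 and 50.7 CPM in cycling cells, 83.1, 81.03 and 59.4 in arrested cells, 133, 144 and 202 in 4h_DMSO and 142, 116 and 189 in 6h_DMSO. All 6 DMSO libraries lay above all 6 others. In 4h_DMSO its log2 fold change was 1.43 ± 0.22 against cycling cells (edgeR adjusted p = 0.00144) and 1.10 ± 0.22 against arrested cells (edgeR adjusted p = 0.0135). In 6h_DMSO the values were 1.33 ± 0.22 (edgeR adjusted p = 0.00266) and 1.00 ± 0.22 (edgeR adjusted p = 0.0115). Arrested and cycling cells differed by 0.33 ± 0.23 (edgeR adjusted p = 0.721). The calls against arrested cells rest partly on experiment C: without arrested A, arrested C or 4h_DMSO C the first was lost (adjusted p up to 0.141), and without arrested C or 6h_DMSO C the second (up to 0.109).

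AC126696.2, opposite to SLC7A5, moved with it. It had 436, 327 and 480.1 CPM in cycling cells, 621, 528 and 623 in arrested cells, 1141, 834 and 1182 in 4h_DMSO and 995, 715 and 1247 in 6h_DMSO. Every DMSO library lay above every cycling and arrested one. Its log2 fold change against cycling cells was 1.34 ± 0.22 at 4 h (edgeR adjusted p = 0.00299) and 1.25 ± 0.22 at 6 h (edgeR adjusted p = 0.00505). Against arrested cells it was 0.83 ± 0.22 and 0.74 ± 0.22, which did not pass by edgeR without the block (adjusted p = 0.0812 and 0.087) and passed with it (adjusted p = 3.15e-13 and 1.05e-10) and by DESeq2 (adjusted p = 0.0116 and 0.0277). Each also passed with either other filter on low counts and in 1 of 6 edgeR fits that left out 1 library. In the authors' deposited table the adjusted p-values for these 2 comparisons were 0.0143 and 0.0234.

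SLC3A2, which has no opposite feature, had 12.4, 11.9 and 8.69 CPM in cycling cells, 14.8, 21.4 and 17.3 in arrested cells, 28.9, 35.7 and 43.3 in 4h_DMSO and 15.8, 26.6 and 42.2 in 6h_DMSO. The 4h_DMSO libraries lay above all cycling and arrested ones, and 6h_DMSO reached down into the arrested range through experiment A. Against cycling cells the log2 fold change was 1.70 ± 0.31 at 4 h (edgeR adjusted p = 0.00454) and 1.34 ± 0.31 at 6 h (edgeR adjusted p = 0.0317). The call at 6 h held in 1 of 6 fits that each left out 1 library of the pair; it was lost without each of the cycling libraries, 6h_DMSO B and 6h_DMSO C, with an adjusted p of up to 0.252. Against arrested cells at 4 h the change was 1.01 ± 0.30, with an edgeR adjusted p of 0.129 and of 0.00265 with the experiment as a block, which made 2 members called there in place of 1 (4.77% of all features).

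The other transporters were not called in any of the 9 comparisons. SLC7A11, the cystine and glutamate exchanger, had 5.32, 15.9 and 8.21 CPM in cycling cells and 16.5, 14.9 and 20.7 in 4h_DMSO, a log2 fold change of 0.83 ± 0.33 (edgeR adjusted p = 0.336). Cycling B overlapped the released libraries. The cationic amino acid transporter SLC7A1 held 25 to 62 counts per library, the glutamine transporter SLC1A5 10 to 48, and SLC38A2, a sodium-coupled transporter of small neutral amino acids, 41 to 152. In SLC7A1 the 4h_DMSO libraries lay above the arrested ones, with a log2 fold change of 0.66 ± 0.28 (edgeR adjusted p = 0.399).

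**Figure D3:**
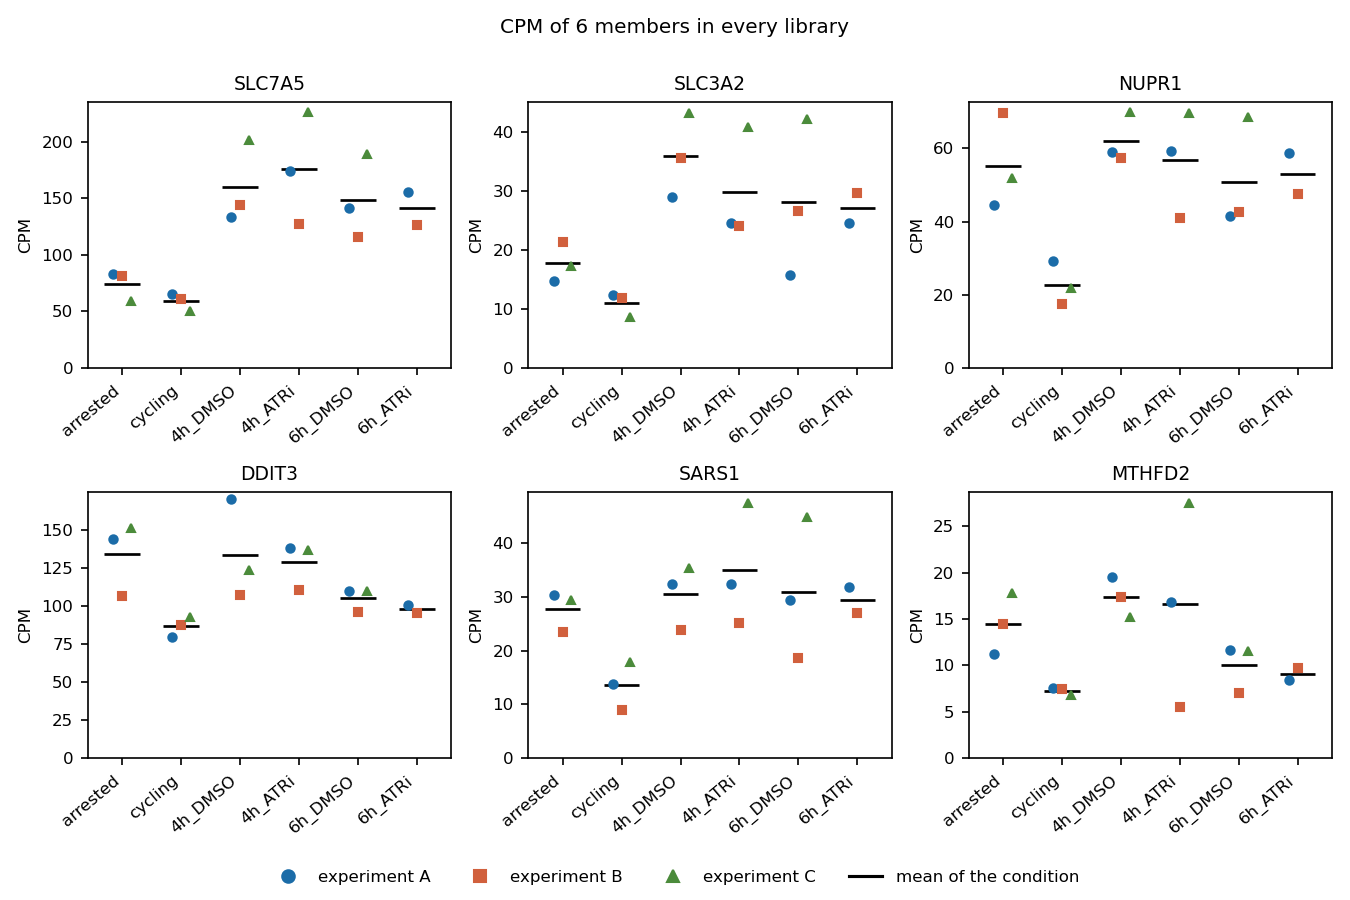
CPM (vertical axes, from 0) of SLC7A5, SLC3A2, NUPR1, DDIT3, SARS1 and MTHFD2 in each library by condition, with a symbol per experiment and a bar at the mean of the condition. SLC7A5 sits between 115.5 and 202 CPM in the 6 DMSO libraries and between 50.7 and 83.1 in cycling and arrested ones, and each treated group overlaps its DMSO group in all 6 genes.

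Of the stress regulators, NUPR1, a small chromatin-associated stress protein, differed most. It had 29.3, 17.4 and 21.7 CPM in cycling cells, 44.5, 69.6 and 51.8 in arrested cells, 58.9, 57.5 and 69.9 in 4h_DMSO and 41.5, 42.7 and 68.5 in 6h_DMSO. The cycling libraries were the lowest 3 of these 12. Against cycling cells the log2 fold change was 1.27 ± 0.25 in arrested cells (edgeR adjusted p = 0.00673), 1.44 ± 0.25 in 4h_DMSO (edgeR adjusted p = 0.00299) and 1.15 ± 0.25 in 6h_DMSO (edgeR adjusted p = 0.0188). It was not called between arrested and released cells, with log2 fold changes of 0.16 ± 0.23 at 4 h and -0.13 ± 0.23 at 6 h. The call in arrested cells was lost without arrested B or cycling B (adjusted p up to 0.0623), and that in 6h_DMSO without cycling B, cycling C or 6h_DMSO C (up to 0.155).

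DDIT3, the C/EBP relative CHOP that ATF4 induces, had 79.4, 87.7 and 92.7 CPM in cycling cells, 144, 106 and 151 in arrested cells, 170.2, 108 and 124 in 4h_DMSO and 110, 95.9 and 110.1 in 6h_DMSO. All 9 arrested and DMSO libraries lay above the 3 cycling ones. The log2 fold change against cycling cells was 0.63 ± 0.18 in arrested cells and 0.63 ± 0.18 in 4h_DMSO, with edgeR adjusted p of 0.103 and 0.0921, and of 4.07e-04 and 3.90e-04 with the experiment as a block. MARS1, opposite to DDIT3 and itself a tRNA synthetase that ATF4 can induce, had 68.7, 77.2 and 84.5 CPM in cycling and 98.5, 95.9 and 132 in arrested cells, a log2 fold change of 0.50 ± 0.21 (edgeR adjusted p = 0.377, and 0.0147 with the block).

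ATF5, a relative of ATF4 whose translation is controlled in the same way, had its highest mean level in cycling cells. It had 154, 120 and 137 CPM there and 108, 85.5 and 119 in arrested cells, and these groups did not overlap. The log2 fold change was -0.40 ± 0.17, with an edgeR adjusted p of 0.414 and of 0.0471 with the experiment as a block, where ATF5 was the only member called lower. ATF4 had 31.5, 32.4 and 33.8 CPM in cycling cells, 36.2, 39.8 and 42.2 in arrested cells and 39.4, 38.6 and 40.4 in 4h_DMSO. From 4 h to 6 h in DMSO it differed by -0.48 ± 0.23 (edgeR adjusted p = 0.998), with the groups not overlapping, and it was called in none of the 9 comparisons.

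CEBPB and CEBPG, the C/EBP partners of ATF4, held 27 to 80 and 1 to 20 counts per library and were not called. TRIB3, a pseudokinase that feeds back on ATF4, and CHAC1, which degrades glutathione, held 0 to 9 and 0 to 7 counts and were not tested. The feature opposite to CEBPB, CEBPB-AS1, had 199, 189.9 and 224 CPM in arrested cells, 173, 135 and 148 in cycling cells, 184, 142 and 145 in 4h_DMSO and 91.3, 109.5 and 118 in 6h_DMSO. It fell between arrested cells and 6h_DMSO with a log2 fold change of -0.95 ± 0.18 (edgeR adjusted p = 0.00289) and the groups did not overlap. CEBPB itself had 32.04, 38.8 and 25.9 CPM in arrested cells and 21.9, 27.1 and 21.4 in 6h_DMSO, and did not pass (-0.46 ± 0.27, edgeR adjusted p = 0.561).

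In serine and one-carbon synthesis no member was called by edgeR without the block. PHGDH, which commits glucose carbon to serine, had 15.5, 15.9 and 14.01 CPM in cycling and 18.4, 38.8 and 22.9 in arrested cells, a log2 fold change of 0.82 ± 0.27 (edgeR adjusted p = 0.2, and 0.0365 with the block). PSAT1, the next enzyme of that route, had 2.66, 4.48 and 3.38 CPM in cycling cells and 13.98, 6.94 and 9.35 in 4h_DMSO, where the log2 fold change was 1.51 ± 0.46 (edgeR adjusted p = 0.133, and 0.0173 with the block). In both genes the cycling libraries were below those they were compared with. PSPH, which completes the route, held 2 to 21 counts, and SHMT2, the mitochondrial enzyme that turns serine into glycine and a one-carbon unit, 33 to 79.

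MTHFD2 had 7.54, 7.47 and 6.76 CPM in cycling cells, 11.3, 14.4 and 17.8 in arrested cells, 19.5, 17.3 and 15.3 in 4h_DMSO and 11.7, 7.03 and 11.5 in 6h_DMSO. The arrested and 4h_DMSO libraries lay above all cycling ones, and 6h_DMSO B fell back among them. Its log2 fold change in 4h_DMSO against cycling cells was 1.25 ± 0.39 (edgeR adjusted p = 0.15, and 0.00656 with the block). From 4 h to 6 h it differed by -0.78 ± 0.38 (edgeR adjusted p = 0.998).

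The features opposite to MTHFD2 hold most of the counts at its locus, and the counts of both rose. Which gene these counts came from is uncertain, as said above. SLC4A5, a bicarbonate transporter gene, had 94.4, 85.7 and 88.9 CPM in cycling cells, 173, 185 and 247 in arrested cells, 233, 169.9 and 251 in 4h_DMSO and 196, 172 and 207 in 6h_DMSO. Its log2 fold change against cycling cells was 1.17 ± 0.20 in arrested cells (edgeR adjusted p = 0.00167), 1.28 ± 0.20 in 4h_DMSO (edgeR adjusted p = 0.00136) and 1.09 ± 0.20 in 6h_DMSO (edgeR adjusted p = 0.00484). AC006030.1 had 444, 339.7 and 440 CPM in cycling cells, 796, 734 and 969 in arrested cells and 1036, 604 and 803 in 4h_DMSO. It rose by 1.03 ± 0.22 on the log2 scale in arrested cells (edgeR adjusted p = 0.024) and by 1.00 ± 0.22 in 4h_DMSO (edgeR adjusted p = 0.0298), and each call held in 1 of 6 fits that left out 1 library. In both features the cycling libraries lay below all arrested and 4h_DMSO ones.

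Among the other enzymes of amino acid synthesis, ASNS had the largest fitted fold changes and the fewest counts of the members tested. It had 0.443, 0 and 0.966 CPM in cycling cells, 1.19, 3.98 and 2.54 in arrested cells, 3.00, 0.495 and 2.46 in 4h_DMSO and 6.06, 3.52 and 2.74 in 6h_DMSO. The 3 cycling libraries hold 3 counts together, against 25 in 6h_DMSO, a ratio of 8.85 after scaling with an exact 95% interval of 2.7 to 45.8 that covers counting error only. Its fitted change there was 2.97 ± 0.94 (edgeR adjusted p = 0.151, and 0.0206 with the block). For arrested cells the ratio was 5.59 (1.58 to 30.1) and for 4h_DMSO 4.18 (1.13 to 23.1).

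PCK2, the mitochondrial enzyme that makes phosphoenolpyruvate, had 0.443, 5.98 and 1.45 CPM in cycling cells and 6.99, 6.44 and 5.91 in 4h_DMSO, with a log2 fold change of 1.31 ± 0.59 (edgeR adjusted p = 0.432). The groups overlapped, because cycling B lay just above 4h_DMSO C. ALDH18A1 held 11 to 31 counts, PYCR1 5 to 27 and the alanine transaminase GPT2 7 to 28, and none of the 3 was called. CTH and CBS, the enzymes of transsulphuration, held 0 to 2 and 0 to 2 counts and were not tested.

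Of the tRNA synthetases, SARS1, which charges serine tRNA, stood apart from cycling cells. It had 13.7, 8.96 and 17.9 CPM there, 30.3, 23.4 and 29.5 in arrested cells, 32.4, 23.8 and 35.4 in 4h_DMSO and 29.4, 18.6 and 44.9 in 6h_DMSO. Every cycling library lay below every other of these. The log2 fold changes were 1.03 ± 0.31, 1.17 ± 0.31 and 1.18 ± 0.31, with edgeR adjusted p of 0.148, 0.0655 and 0.0616, and of 0.00149, 1.41e-04 and 1.69e-04 with the block. The alanine enzyme AARS1 held 29 to 63 counts, the glycine enzyme GARS1 37 to 63, the tryptophan enzyme WARS1 27 to 65, EPRS1 25 to 68 and the tRNA exporter XPOT 38 to 78, and none was called. Nor were STC2, a secreted glycoprotein with 265 to 493 counts, and VLDLR with 9 to 25.

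With the experiment as a block, more members passed, as did more features in general. In arrested against cycling cells 4 members were higher (DDIT3, NUPR1, PHGDH and SARS1) and 1 was lower (ATF5), in a background of 5.64% of features called. In 4h_DMSO against cycling cells 7 were higher, adding DDIT3, MTHFD2, PSAT1 and SARS1 to the 3 named above (5.87%). In 6h_DMSO 5 were higher, adding ASNS and SARS1 (6.29%). Against arrested cells 1 member was called in 6h_DMSO (7.71%). DESeq2 called 2, 5 and 4 members higher in arrested, 4h_DMSO and 6h_DMSO against cycling cells, with 2.22%, 2.91% and 2.95% of the features it gave an adjusted p. It called SLC7A5 alone against arrested cells at each time, with 3.24% at 4 h and 4.31% at 6 h. Between 4h_DMSO and 6h_DMSO 0 members passed by edgeR, with the block or by DESeq2, 2 had an unadjusted p under 0.05, and 0.0814% of all features passed by edgeR, 1.04% with the block and 0.352% by DESeq2. There 24 of 30 members were below 0, with a median of -0.21 against -0.02 for all features.

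The medians over the 30 members for these comparisons were as follows, with that of all features between -0.02 and 0.00 in each. For arrested against cycling cells the median log2 fold change was 0.31, with 22 members above 0. For 4h_DMSO against cycling cells it was 0.37, with 24 above 0, and for 6h_DMSO 0.23, with 18 above 0. Against arrested cells it was 0.10 in 4h_DMSO and -0.08 in 6h_DMSO. Over the 18 tested members with no opposite feature the medians were 0.46, 0.38 and 0.24 against cycling cells, and NUPR1 and SLC3A2 were the called members among them.

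**Figure D4:**
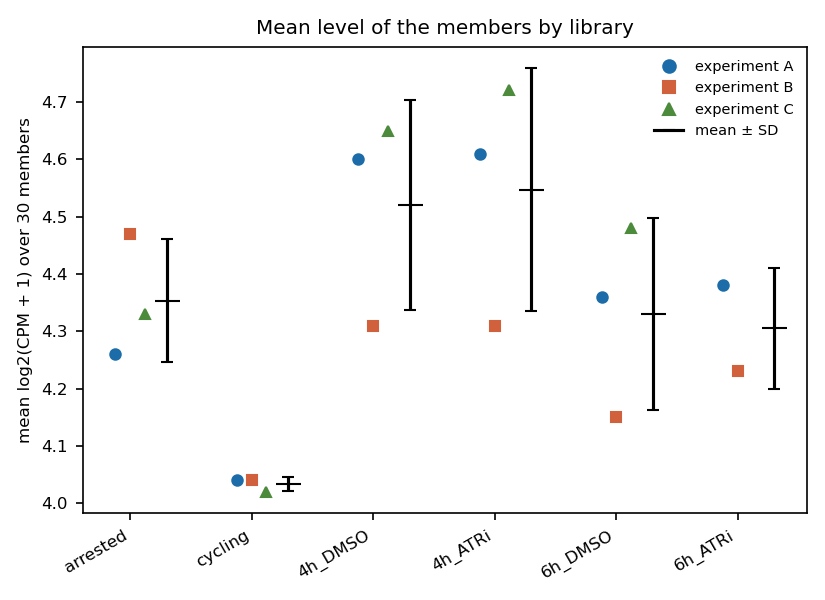
Mean log2(CPM + 1) over the 30 tested members (vertical axis, not starting at 0) in each library by condition, with mean ± SD beside the points. The cycling libraries lie between 4.02 and 4.04 and all others between 4.15 and 4.72, and DMSO and ATRi libraries of the same time overlap.

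Averaged over the 30 members, log2(CPM + 1) was 4.03 ± 0.02 in cycling cells, 4.35 ± 0.11 in arrested cells, 4.52 ± 0.18 in 4h_DMSO and 4.33 ± 0.17 in 6h_DMSO (SD, n = 3 each). With the inhibitor it was 4.55 ± 0.21 at 4 h (SD, n = 3) and 4.31 ± 0.11 at 6 h (SD, n = 2). The inhibitor and DMSO means differed by 0.02 at 4 h and -0.03 at 6 h, less than the spread between libraries. All 3 cycling libraries lay below all others. From arrested cells to 4h_DMSO the mean differed by 0.17, and by 0.33 without experiment B, whose arrested library was the highest of its group while its 4h_DMSO library was the lowest. By role, the transporters had 4.54 ± 0.13 in cycling, 4.68 ± 0.04 in arrested and 5.21 ± 0.14 in 4h_DMSO cells, and the serine and one-carbon enzymes 3.13 ± 0.18, 3.72 ± 0.17 and 3.89 ± 0.21 (SD, n = 3 each). In 6h_DMSO the transporters had 4.99 ± 0.32 and the serine and one-carbon enzymes 3.40 ± 0.12 (SD, n = 3 each), and in 6h_ATRi 4.73 ± 0.19 and 3.40 ± 0.15 (SD, n = 2 each). For the transporters all 3 libraries of 4h_DMSO lay above all arrested and cycling ones, while the 6h_ATRi libraries, from 4.60 to 4.87, overlapped the arrested ones. For the enzymes every library at 6 h lay below every arrested one. These differences by role were not tested.

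The features on the opposite strand were counted in the same way. Against cycling cells 2 of 16 opposite features rose in arrested cells (SLC4A5 and AC006030.1), 3 in 4h_DMSO (these and AC126696.2) and 2 in 6h_DMSO (AC126696.2 and SLC4A5). Against arrested cells 2 fell in 6h_DMSO, CEBPB-AS1 and NDUFA4L2, a gene opposite to SHMT2, and 0 passed in 4h_DMSO, where 2 had an unadjusted p under 0.05 and DESeq2 called 1. NDUFA4L2 had 12.5, 23.4 and 12.7 CPM in arrested cells and 1.40, 3.52 and 2.74 in 6h_DMSO, a log2 fold change of -2.65 ± 0.63 (edgeR adjusted p = 0.0255), and that call held in 1 of 6 fits that left out 1 library. With the block 9, 5 and 6 passed against cycling cells in the same order, and 2 and 8 against arrested cells. Of all features, edgeR without the block called 1.03%, 0.918% and 1.04% against cycling cells. Against arrested cells it called 0.74% at 4 h and 2.32% at 6 h. With the block the shares were 5.64%, 5.87%, 6.29%, 4.77% and 7.71% in that order.

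Between 4h_DMSO and 6h_DMSO 0 opposite features passed by edgeR or DESeq2, 4 had an unadjusted p under 0.05, and 5 were lower with the block. Of all features 1.04% were called there with the block. CEBPB-AS1 differed by -0.57 ± 0.18 (edgeR adjusted p = 0.504, and 0.00317 with the block), and SLC7A11-AS1, opposite to the cystine exchanger, by -0.47 ± 0.18 (edgeR adjusted p = 0.76, and 0.0113 with the block). SLC7A11-AS1 had 279.5, 218 and 271 CPM at 4 h and 172, 192 and 188 at 6 h, and the groups did not overlap. The other 3 were NDUFA4L2, AC006030.1 and AC008622.2.

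**Figure D5:**
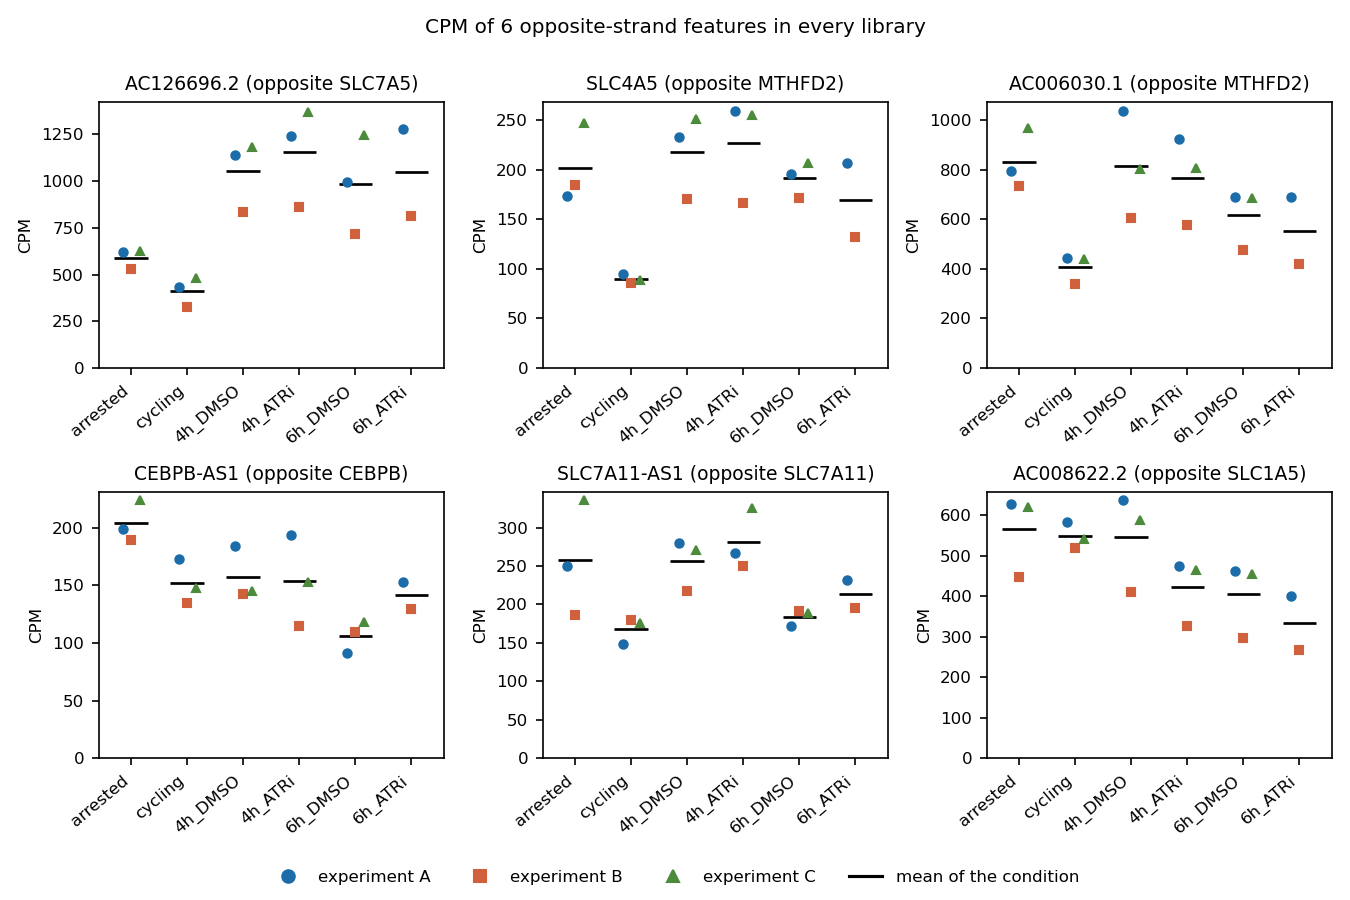
CPM (vertical axes, from 0) of 6 features on the strand opposite to members, in each library by condition, with a symbol per experiment and a bar at the mean of the condition. AC126696.2 is at 327 to 480.1 CPM in cycling cells and 714.7 to 1247 in DMSO cells, and experiment B is the lowest library of every released group in AC126696.2, SLC4A5, AC006030.1 and AC008622.2.

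Other genes of the pathway gave few calls. Of 12 measured upstream kinases and eIF2 regulators 0 passed by edgeR in any of the 9 comparisons. The smallest p belonged to EIF2B1, a subunit of the eIF2 exchange factor, with -0.70 ± 0.19 in 6h_DMSO against cycling cells (edgeR adjusted p = 0.0814). EIF2AK4, the GCN2 kinase, had -0.60 ± 0.20 in arrested against cycling cells (edgeR adjusted p = 0.213). Of 29 measured further ATF4 targets 2 fell in 6h_DMSO against arrested cells and 0 passed in the other 8 comparisons. The 2 were SESN2, an inhibitor of mTORC1 that senses leucine, with -2.96 ± 0.80 (edgeR adjusted p = 0.0446), and DDIT4, another inhibitor of mTORC1, with -3.55 ± 0.97 (edgeR adjusted p = 0.0485). SESN2 held 47 counts over the arrested libraries and 6 over 6h_DMSO, and DDIT4 48 and 4. Each call held in 1 of 6 fits that left out 1 library, and DESeq2 gave neither gene an adjusted p. With the block up to 4 further targets passed in a comparison and up to 2 upstream genes, and DESeq2 called 0 of both lists. SLC7A5 rose in that same comparison.

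Among 10 measured tRNA synthetases outside the ATF4 set and 20 measured genes of the endoplasmic reticulum unfolded protein response 0 passed by edgeR in any comparison and 0 by DESeq2. With the block up to 1 and up to 2 passed in a comparison. FARSA, a subunit of the phenylalanine enzyme, had the smallest p of the first list (-1.35 ± 0.45 in arrested against cycling cells, edgeR adjusted p = 0.206). HSP90B1, an endoplasmic reticulum chaperone, had -0.48 ± 0.17 in arrested against cycling cells (edgeR adjusted p = 0.256, and 1.38e-04 with the block). In the same comparison the median of the unfolded protein response list was -0.29, with 4 of 20 above 0, while that of the members was 0.31. The medians of the other synthetases and of the upstream genes there were 0.00 and -0.25.

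The authors' deposited table of comparisons, made with DESeq2 per the submitters' processing notes, was read for the members at an adjusted p under 0.05. By the authors' deposited table, 0 members were called for the inhibitor at either time or between 4h_DMSO and 6h_DMSO. Only 22 members had an adjusted p there for the inhibitor at 4 h, 16 at 6 h and 16 between the DMSO times. The other members had none and could not be called. The authors' deposited table called SLC7A5 between arrested cells and each DMSO group, and DDIT3 and NUPR1 between arrested and cycling cells. Against cycling cells the authors' deposited table called DDIT3, NUPR1, SARS1, SLC3A2 and SLC7A5 in 4h_DMSO and NUPR1, SARS1, SLC3A2 and SLC7A5 in 6h_DMSO. Members with an adjusted p numbered 26 between arrested and cycling cells. They numbered 20 for each DMSO group, both against arrested and against cycling cells. The share of all features called in the authors' table is not given here.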

How the data were processed

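The authors deposited a table of whole-number counts per gene that were not normalised, made from total RNA with KAPA's stranded mRNA kit (per the labels' protocols). TopHat, HTSeq, DESeq2 and the build GRCh37 are named in the submitters' processing notes, and no source used here gives versions or the strand setting. Their other deposited table gives, for the 8 of the authors' comparisons read here, log2 fold changes. Beside each stands the authors' adjusted p-value.

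Here, features were kept by filterByExpr (minimum count 10, minimum total 15), and edgeR 4.0.16 in R 4.3.3 (TMM, glmQLFit with robust estimation, glmQLFTest, two-sided) was run in 1 fit of all 17 libraries, with 1 mean for each condition. P-values were adjusted by Benjamini-Hochberg over all 13510 features. DESeq2 1.42.0, other scalings and filters, left-out libraries and the experiment as a block were alternatives. The letters were taken as the 3 experiments of the design text. Deviations of same-letter libraries from their condition means correlated at 0.0809 to 0.534 across genes over 23 pairs, and the 2 lowest involve cycling C. GENCODE annotation of GRCh38 was used for names and strand overlaps, with no coordinates. The mean level is the mean of log2(CPM + 1). With about 2 counts per CPM, members at a few CPM are imprecise, and intervals cover counting error only. The fits were tested on simulated data. The members, lists and the rule for named genes were chosen with earlier results of these data known. By that rule, members and opposite features called in a comparison get full statistics, or else the 3 members with the smallest p, and other lists give their called genes or the 2 smallest p. Some genes this rule would name are not reported here.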

Additional observations from a re-analysis of the deposited data

Results flagged for a closer look

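For 3 transporters the inhibitor response ran one way in every experiment at 4 h and the other way in every experiment at 6 h, although the fitted difference between the times did not pass for any of them. The 3 were found by searching the 30 measured members for this pattern of signs. Its share over all features was not counted, so the 3 are not set against a background. The tests below are edgeR's quasi-likelihood test of the difference itself, with 3 experiments at 4 h and 2 at 6 h. For SLC3A2 the log2 ratio of inhibitor to DMSO was -0.23, -0.54 and -0.08 in A, B and C at 4 h and 0.61 and 0.15 in A and B at 6 h, and the fitted difference was 0.23 ± 0.43 (adjusted p = 0.9999). For SLC1A5 the ratios were 0.12, 0.16 and 0.01, then -0.11 and -1.97, and the fitted difference was -1.08 ± 0.47 (adjusted p = 0.9999). For SLC38A2 they were 0.06, 0.17 and 0.16, then -0.21 and -0.23, and the fitted difference was -0.63 ± 0.51 (adjusted p = 0.9999).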

How the results depend on the processing

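For the inhibitor at 4 h, at 6 h and for the difference between the times, 0 members passed under every alternative run. The mean level of the members kept its direction from cycling to arrested cells and to both DMSO groups under every alternative. With the experiment as a replicate block the members called numbered 2 in 4h_DMSO against arrested cells, 5 in arrested against cycling cells, and 7 and 5 in 4h_DMSO and 6h_DMSO against cycling cells. The opposite features called with that block numbered 2 for the inhibitor at 4 h, 5 between the DMSO times, 2 and 8 at 4 h and 6 h against arrested cells, and 9, 5 and 6 for arrested, 4h_DMSO and 6h_DMSO against cycling cells. The block changed no other count of called members or opposite features. The shares of all features called with the block are given above. In arrested against cycling cells it raised further ATF4 targets called from 0 to 2, upstream genes from 0 to 2, other synthetases from 0 to 1 and unfolded protein response genes from 0 to 2, and in 4h_DMSO against cycling cells further targets from 0 to 3. It raised mitotic genes called from 5 to 6 for the inhibitor at 4 h and from 0 to 4 between the DMSO times.

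With DESeq2, members called were 2 in arrested and 5 in 4h_DMSO against cycling cells, and opposite features 1 in 4h_DMSO against arrested cells and 4 and 5 in arrested and 4h_DMSO against cycling cells. Without the low-count filter, members called were 2 in 4h_DMSO against arrested cells and 2 in arrested against cycling cells, and 1 opposite feature passed in 4h_DMSO against arrested cells. With the stricter filter, members called were 2 and 5 in arrested and 4h_DMSO against cycling cells, and opposite features 1 in 4h_DMSO against arrested cells and 5 in 4h_DMSO against cycling cells. Fitting only the conditions compared gave 4 opposite features in 6h_DMSO against cycling cells.

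With experiment B left out, members called were 2 in 4h_DMSO against arrested cells and 2, 9 and 6 in arrested, 4h_DMSO and 6h_DMSO against cycling cells. The share of all features called in this fit was not counted, so these counts have no background beside them. The same holds for the other filters, the fits of only the conditions compared and those without 1 library. Opposite features were then 2 between the DMSO times, 1 and 5 at 4 h and 6 h against arrested cells, and 7, 5 and 5 against cycling cells. The mean level then differed by 0.33 and 0.13 in 4h_DMSO and 6h_DMSO from arrested cells, and a pseudocount of 5 gave 0.23 from cycling to arrested cells. The cause of these shifts was not tested.

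Leaving out 1 library at a time gave 0 to 1 members in 4h_DMSO and in 6h_DMSO against arrested cells and in arrested against cycling cells, and 1 to 3 in 6h_DMSO against cycling cells. Opposite features ranged from 0 to 1 in 4h_DMSO and from 1 to 2 in 6h_DMSO against arrested cells, and from 1 to 3 in arrested against cycling cells. An arm left with 1 library was assumed to vary like the others. Calls of genes at a few CPM are limited by depth.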
